A study of Mus musculus with 38 samples.

Results

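The genes described here are 10 markers of neutrophils, S100a8, S100a9, Ngp, Ltf, Camp, Mmp8, Cxcr2, Retnlg, Csf3r and Il1b, followed through RNA sequencing of mouse liver. They were found by their symbols in both tables of expression values, and all 10 were present among the 21644 genes of each. Neutrophils are the short-lived phagocytes of the blood. They fill their granules in steps while they mature in the bone marrow, leave the marrow under granulocyte colony-stimulating factor, and are drawn into tissue by chemokines. In liver they are few at rest and gather there during injury, infection and tumour growth. No neutrophils were sorted in this study, so every value comes from whole tissue, in which fewer cells of a type and less RNA per cell cannot be told apart.

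The libraries fell into 9 groups of 2 systems, made to ask what Myc and YAP do in liver, alone and together. In the LAP system (LAP-tTA mice) a promoter active in hepatocytes drives the tetracycline transactivator. It held 8 tumours from tet-YAP mice, and 3 tet-Myc/YAP, 4 tet-YAP, 3 tet-Myc and 3 wild-type (WT) livers, the transgenic livers other than tumours being labelled with 4 weeks. In the R26 system (R26-rtTA mice) the doxycycline-dependent activator comes from the Rosa26 locus, which is active in most cell types, blood cells included. It held 3 tet-Myc/YAP, 6 tet-YAP, 4 tet-Myc and 4 WT livers, and the transgenic livers are labelled with 2 days. WT livers carry the activator of their system without a tet transgene, and tet-YAP encodes an activated mutant of YAP. The labels give no age, and for the tumours neither a time nor whether any of them shared a mouse. No label says that libraries were from different animals, so p-values measure the spread between these libraries only.

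The unit of every level is RPKM, reads scaled to the length of the gene and the size of the library. Tests were run with limma on log2(RPKM + 0.5), a scale that understates the changes of low genes. A gene passed where the Benjamini-Hochberg adjusted p was below 0.05 and the log2 difference was 0.5 or more in size. Depth was read off the spacing of the lowest values and lay between 23700000 and 56800000 reads. The value columns name only the group, so libraries were numbered in column order. Xist and Y-linked genes gave a female pattern to 17 of 38 libraries, among them all 8 tumours, LAP WT 2 and 3, LAP tet-Myc/YAP 1 and 2, LAP tet-YAP 2 and LAP tet-Myc 3. Among R26 libraries, 6 pairs of the same group differed by only 1.18 to 1.95 times the variance of counting reads, against 2.32 to 8.47 times for the other 24 pairs, and results are also given with these pairs averaged. The sixth-highest gene stood at a similar read density in every library. S100a8 reached 70.0% of that ceiling in a tumour. Whether the highest values of S100a8 and S100a9 were compressed was not tested.

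The promoters of the members are shown because several of these genes moved together. RefSeq (GRCm38.p6) gave a transcription start for all 10, and the 250 bases before it are printed, 5′ to 3′ on the strand of the gene, for the granule protein genes Ngp (chr9:110419558-110419807, plus strand), Ltf (chr9:111019042-111019291, plus strand) and Camp (chr9:109849457-109849706, minus strand) and for S100a8 (chr3:90668821-90669070, plus strand). Capitals mark matches on either strand to TTNNGNAA, a motif of the C/EBP transcription factors that act in granulocyte development.
Ngp: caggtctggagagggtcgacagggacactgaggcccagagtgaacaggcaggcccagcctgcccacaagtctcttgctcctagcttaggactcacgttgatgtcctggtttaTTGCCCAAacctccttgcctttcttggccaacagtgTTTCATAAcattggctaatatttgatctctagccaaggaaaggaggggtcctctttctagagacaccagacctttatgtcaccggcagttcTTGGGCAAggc
Ltf: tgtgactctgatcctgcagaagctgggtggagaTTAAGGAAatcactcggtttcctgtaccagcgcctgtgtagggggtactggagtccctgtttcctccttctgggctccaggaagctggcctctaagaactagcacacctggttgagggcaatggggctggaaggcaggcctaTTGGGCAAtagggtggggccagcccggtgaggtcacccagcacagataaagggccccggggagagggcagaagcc
Camp: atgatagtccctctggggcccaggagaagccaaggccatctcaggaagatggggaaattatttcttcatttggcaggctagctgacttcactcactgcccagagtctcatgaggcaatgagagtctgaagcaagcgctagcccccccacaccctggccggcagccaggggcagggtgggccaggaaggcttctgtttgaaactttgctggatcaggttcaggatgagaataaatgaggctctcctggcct
S100a8: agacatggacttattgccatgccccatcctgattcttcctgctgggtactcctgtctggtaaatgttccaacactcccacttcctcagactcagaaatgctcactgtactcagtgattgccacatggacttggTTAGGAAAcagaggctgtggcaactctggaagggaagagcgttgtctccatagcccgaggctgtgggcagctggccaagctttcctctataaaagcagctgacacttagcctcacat
A match to TTNNGNAA was present in 7 of the 10 member promoters, with 3 in Ngp and none in Camp, Cxcr2 or Csf3r. Of all 32851 promoters in the table, 36.8% held at least 1 such match in the same 250 bases. GAGGAA, a motif of the myeloid factor PU.1, was found on either strand in 5 member promoters (Cxcr2, S100a8, Csf3r, Mmp8 and Ltf) and in 23.3% of all promoters, and no match of either motif overlapped another. These are matches of letters only. S100a8 and S100a9 lie on chromosome 3, and Ngp, Camp, Ltf and Mmp8 all lie on chromosome 9.

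S100a8 and S100a9, which together form calprotectin, an abundant protein of the neutrophil cytosol, had the highest RPKM of the members in every tumour and rose in the tumours. S100a8 ran from 3.28 to 20.8 RPKM with a median of 15.3 in the 8 tumours, against 0.24, 0.474 and 2.15 RPKM in the 3 LAP WT livers. All 8 tumours lay above every WT liver, and the high WT value belonged to library 1, the only WT library with a male pattern. The mean was 13.5 ± 7.03 RPKM in tumours (SD, n = 8) and 0.956 ± 1.04 in WT (n = 3), a log2 difference of 3.28 ± 0.48 (SE; adjusted p = 9.1e-06, limma). S100a9 followed it, with 3.26 to 18.1 RPKM and a median of 12.8 in tumours, against 0.256, 0.378 and 2.41 in WT (log2 difference 3.09 ± 0.50, adjusted p = 3e-05).

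The tet-Myc/YAP and tet-YAP livers averaged between these groups for both genes. S100a8 stood at 4.13, 2.34 and 3.38 RPKM in LAP tet-Myc/YAP, against the WT values above, and all 3 libraries exceeded every WT liver (log2 difference 1.58 ± 0.58, adjusted p = 0.0346). That call ended without WT 2 (1.21, adjusted p = 0.15), without WT 3 (adjusted p = 0.102), without tet-Myc/YAP 1 (adjusted p = 0.105) or without tet-Myc/YAP 3 (adjusted p = 0.0734). It also ended with libraries rescaled (1.44, adjusted p = 0.0564), in the female-pattern libraries alone (adjusted p = 0.0518), with a pseudocount of 1 (adjusted p = 0.0573) and without the filter on low values (adjusted p = 0.0587). In LAP tet-YAP S100a8 stood at 2.58, 1.47, 2.46 and 3.70 RPKM, with 3 of 4 libraries above every WT liver, and the difference to WT did not pass (1.25, adjusted p = 0.082). In LAP tet-Myc it stood at 1.39, 1.65 and 0.318 RPKM, within the range of WT, and the lowest value was again that of the library with a female pattern. Tumours exceeded tet-Myc/YAP (1.70 ± 0.48, adjusted p = 0.0085) and tet-YAP livers (2.03 ± 0.43, adjusted p = 0.00124), with 7 of 8 tumours above every liver of each group. Tumour 6, at 3.28 RPKM, was the one within their range.

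**Figure D1:**
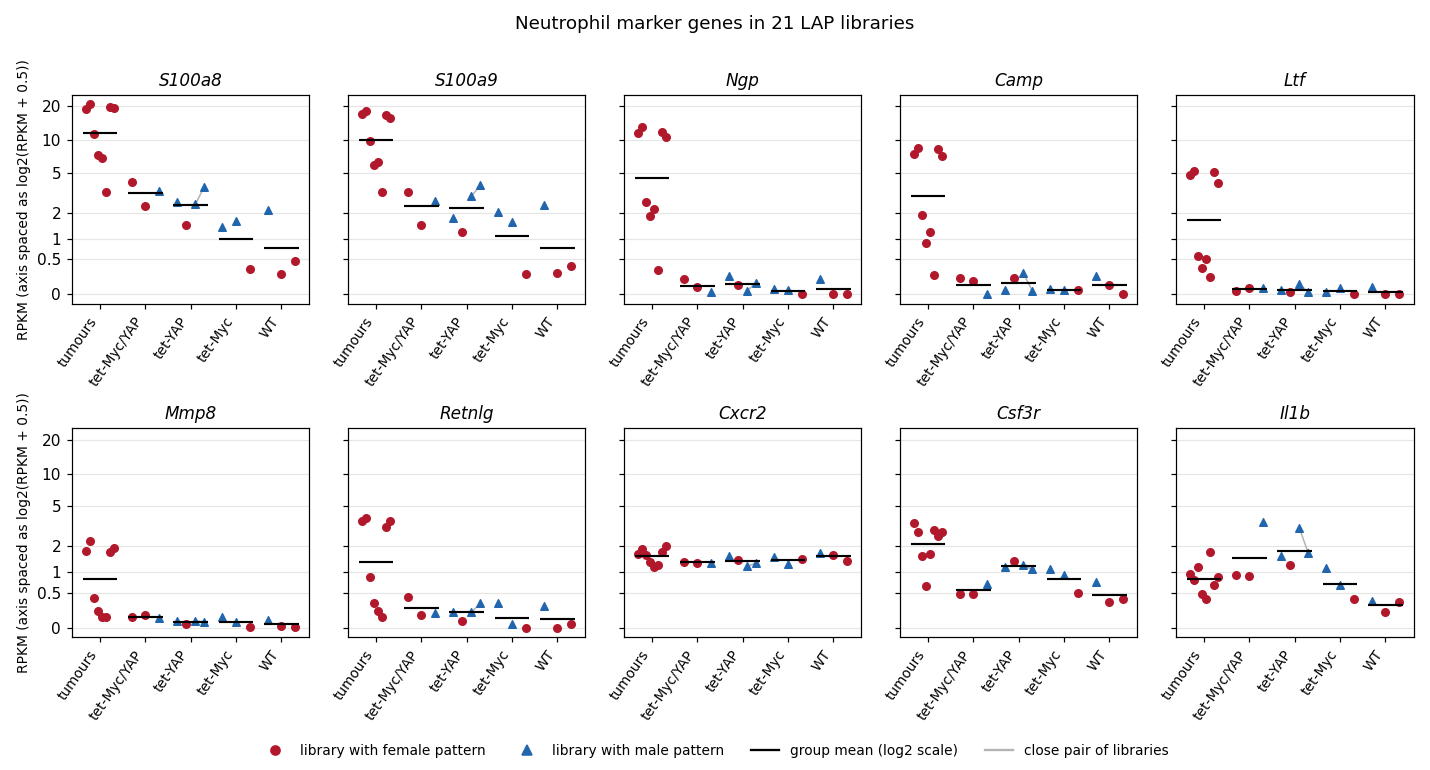
Levels of the 10 members in the 21 LAP libraries, 1 panel per gene, with groups along the horizontal axis and RPKM, spaced as log2(RPKM + 0.5), on the vertical axis. Each point is a library, its shape and colour give the pattern of sex-linked genes, the black bar is the group mean on the log2 scale, and a grey line joins the close pair tet-YAP 3 and 4. S100a8 spans 3.28 to 20.8 RPKM in tumours and at most 4.13 RPKM elsewhere, while Cxcr2 spans 1.17 to 2.00 RPKM over all groups.

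Genes of the secondary and tertiary granules, which neutrophils fill at the myelocyte and later stages of maturation, were near 0 in all LAP livers and present in most tumours. Ngp, Camp, Ltf, Mmp8 and Retnlg entered the tests only because tumours reached the filter of 1 RPKM in at least 3 libraries, so a difference was built in, and their fits against tumours are descriptions and not support. Ngp, a neutrophilic granule protein of the cathelicidin family, ran from 0.303 to 13.3 RPKM with a median of 6.71 in the tumours, against 0.182, 0 and 0 in WT. Its highest value in any other LAP liver was 0.224 RPKM, in tet-YAP 1, so all 8 tumours lay above all 13 livers. The counts behind these values were 20 to 834 reads per tumour and 0 to 5 reads per WT liver. The log2 difference was 3.17 ± 0.62 to WT (adjusted p = 0.000213), 3.08 ± 0.62 to tet-Myc/YAP (adjusted p = 0.00107) and 3.01 ± 0.56 to tet-YAP (adjusted p = 0.000411).

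Camp, the precursor of the antimicrobial peptide cathelicidin, ran from 0.235 to 8.61 RPKM with a median of 4.56 in tumours, against 0.211, 0.105 and 0 in WT (log2 difference 2.54 ± 0.60, adjusted p = 0.00106). Ltf, which encodes the iron-binding protein lactoferrin, ran from 0.199 to 5.17 RPKM with a median of 2.30, against 0.077, 0 and 0 in WT (2.04 ± 0.57, adjusted p = 0.00415). Mmp8, the neutrophil collagenase, ran from 0.117 to 2.26 RPKM with a median of 1.07, against 0.0861, 0.0128 and 0.0108 in WT (1.28 ± 0.41, adjusted p = 0.0113). For all 3 genes every tumour lay above every WT liver, although tumour 6 did so for Camp by only 0.235 against 0.211 RPKM, or 8 reads against 3. Retnlg, a resistin-like secreted protein of neutrophils, ran from 0.113 to 3.90 RPKM with a median of 2.02, against 0.27, 0 and 0.0425 in WT (1.63 ± 0.54, adjusted p = 0.0127). It was above every WT liver in 6 of 8 tumours, and its call ended without WT 2 (1.51, adjusted p = 0.053). Against tet-YAP livers Retnlg was higher (1.43, adjusted p = 0.0277), which ended without tumour 2 or without tet-YAP 1, 2 or 3 (adjusted p from 0.0507 to 0.0769). Against tet-Myc/YAP livers Mmp8 was higher (1.06, adjusted p = 0.0434), which ended without any of the 3 tet-Myc/YAP livers or without tumours 1, 2, 7 or 8 (adjusted p from 0.0689 to 0.1201).

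Among the non-tumour LAP livers these 5 genes passed in no comparison. In tet-Myc/YAP, tet-YAP and tet-Myc livers the highest value was 0.262 RPKM for Camp, 0.114 for Ltf, 0.142 for Mmp8 and 0.409 for Retnlg. Their log2 differences to WT ran from 0.02 to 0.30 in tet-Myc/YAP and from 0.06 to 0.20 in tet-YAP. These rest on few reads, 12 for Ngp over the 3 tet-Myc/YAP livers and 5 over the 3 WT livers, so a small change was not detectable at this depth. Mmp8 held 36 reads over the 3 tet-Myc/YAP livers and 7 over the 3 WT livers. Its 3 tet-Myc/YAP values lay above every WT and every tet-YAP liver, with means 3.36 and 2.04 times theirs, without passing.

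The receptors differed from each other. Cxcr2, the receptor through which neutrophils follow CXC chemokines, ran from 1.17 to 2.00 RPKM with a median of 1.64 in tumours, against 1.71, 1.62 and 1.36 in WT. The groups overlapped fully, and the log2 difference was -0.00 with a 95% confidence interval of -0.27 to 0.27 (adjusted p = 0.991). It also passed in no other comparison (R26 tet-Myc/YAP against WT -0.11, or 0.20 with libraries rescaled), with group means of 1.31 to 1.68 RPKM over the livers of both systems. Csf3r, the receptor of granulocyte colony-stimulating factor, ran from 0.636 to 3.44 RPKM with a median of 2.67 in tumours, against 0.722, 0.322 and 0.385 in WT. It lay above every WT liver in 7 of 8 tumours (log2 difference 1.45 ± 0.28, adjusted p = 0.000149), and above every tet-Myc/YAP liver in 7 of 8 (1.33 ± 0.28, adjusted p = 0.00122).

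In the livers at 4 weeks Csf3r stood at 1.16, 1.38, 1.21 and 1.08 RPKM in tet-YAP, above all 3 WT livers, and passed narrowly (0.83 ± 0.31, adjusted p = 0.0479). That call ended in 12 of the alternatives, among them without WT 2 (0.71, adjusted p = 0.15), without any other single WT or tet-YAP library (adjusted p from 0.0645 to 0.115) and once the sex pattern was a covariate (0.70, adjusted p = 0.103). In tet-Myc/YAP it stood at 0.477, 0.473 and 0.692 RPKM, within the range of WT. The difference between tumours and tet-YAP livers was 0.62 ± 0.25 (adjusted p = 0.0583) and did not pass, with 7 of 8 tumours above every tet-YAP liver and tumour 4 below all of them. With libraries rescaled it did pass (0.68, adjusted p = 0.0405, limma).

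Il1b, the inflammatory cytokine made by neutrophils, monocytes and macrophages, had another order of groups. It ran from 0.376 to 1.71 RPKM with a median of 0.813 in tumours, against 0.34, 0.177 and 0.327 in WT. All 8 tumours lay above WT, and the call was narrow (0.76 ± 0.31, adjusted p = 0.0411), since it ended without the filter on low values (adjusted p = 0.062) and without any of WT 1, 2 or 3 (adjusted p = 0.076, 0.14 and 0.074), or without any of tumours 1, 2, 3, 6 or 8 (adjusted p from 0.0503 to 0.0661). Higher levels were seen in tet-Myc/YAP and tet-YAP livers at 4 weeks. Il1b stood at 0.914, 0.891 and 3.56 RPKM in tet-Myc/YAP (1.36 ± 0.38 over WT, adjusted p = 0.00732) and at 1.54, 1.23, 3.09 and 1.68 RPKM in tet-YAP (1.56 ± 0.35, adjusted p = 0.00387). All 7 of these livers exceeded every WT liver. Without tet-Myc/YAP 3, the male-pattern library with 3.56 RPKM, the tet-Myc/YAP call ended (0.85, adjusted p = 0.062).

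Tumours did not pass against tet-Myc/YAP livers (-0.60, adjusted p = 0.121) but were lower in Il1b than tet-YAP livers without tumours (-0.80 ± 0.28, adjusted p = 0.034), with 7 of 8 tumours below every tet-YAP liver. That difference was -0.59 (adjusted p = 0.16) without tet-YAP 3 and -0.26 (adjusted p = 0.581) once the sex pattern entered the fit, and it also missed the threshold without tet-YAP 1 or 4 or without tumours 4, 5 or 7 (adjusted p from 0.052 to 0.0593). The call ended too without the filter on low values and with the close pair tet-YAP 3 and 4 averaged. Macrophage markers moved the same way as Il1b between tumours and tet-YAP livers and between tet-YAP livers and WT, but not in the other 2 comparisons below. In tumours 7 of 13 were called lower than in tet-YAP livers and none higher (15.5% of all genes lower and 9.89% higher). Their summed level was 63.8 to 134 RPKM in tumours and 196 to 268 RPKM in tet-YAP livers. In tet-YAP livers 5 of 13 macrophage and 4 of 8 monocyte markers were higher than in WT and none lower (11.5% of all genes higher and 15.3% lower). The sums in WT were 107 to 186 RPKM for macrophages and 26.4 to 36.2 RPKM for monocytes, against 41.1 to 47.6 RPKM for monocytes in tet-YAP. In tet-Myc/YAP livers, where Il1b was also higher than in WT, none of 13 macrophage markers was called and their sum was 106 to 187 RPKM. Of 8 monocyte markers 2 were higher and 1 lower than in WT there (22.5% of all genes higher and 14.0% lower). In tumours against WT, where Il1b was higher as well, 2 of 13 macrophage markers were higher and 5 lower (21.5% of all genes higher and 31.3% lower). The part of these cells in the level of Il1b was not tested. In LAP tet-Myc, Il1b stood at 1.12, 0.657 and 0.374 RPKM, above all 3 WT values, and did not pass (0.60, adjusted p = 0.484).

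Counted over the members, 9 of 10 were called higher in tumours than in WT and none lower, where 21.5% of the 12591 genes tested were called higher and 31.3% lower. Ngp, Camp, Ltf, Mmp8 and Retnlg, which came in through the tumours, had to differ and say nothing here. Of the 5 members that also reached it in other livers, S100a8, S100a9, Csf3r and Il1b passed and Cxcr2 did not. Against tet-YAP livers 7 members were called higher (9.89% of genes) and Il1b lower (15.5% of genes), and against tet-Myc/YAP livers 7 were called higher (6.57% of genes) and none lower (26.4% of genes, and 9.55% with libraries rescaled, when 1384 genes were higher and 1200 lower). These counts carry the same limit. Of the 5 members that reached the filter elsewhere, S100a8 and S100a9 were higher and Il1b lower against tet-YAP, and S100a8, S100a9 and Csf3r were higher against tet-Myc/YAP. Against WT, 2 members were called higher in tet-Myc/YAP (S100a8 and Il1b, 22.5% of genes, with 14.0% lower) and 2 in tet-YAP (Il1b and Csf3r, 11.5% of genes, with 15.3% lower). In tet-Myc none was called in either direction (0.0238% of genes), and none had an unadjusted p under 0.05. None was called between tet-Myc/YAP and tet-YAP (28.9% of genes) or tet-Myc (27.7% of genes), or for the interaction of Myc and YAP (15.7% of genes), where limma gave 1 member in each with an unadjusted p under 0.05.

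Within the female-pattern libraries alone, a setting added after the data were seen, 6 of 10 members were called higher in tumours than in the 2 WT livers left (17.6% of all genes). The filter was applied anew to these libraries, and only S100a8, S100a9 and Cxcr2 met it without the tumours. Csf3r and Il1b, like the granule genes, thus came in through the tumours. S100a8 was at 3.82 (adjusted p = 0.000214, limma) and Ngp at 3.31 (adjusted p = 0.01, limma). Ltf (2.11, adjusted p = 0.0526), Mmp8 and Retnlg then missed the threshold. Against the single female-pattern tet-YAP liver, whose spread is taken from the other groups, no member was called (1.70% of all genes higher and 2.67% lower; 3 had an unadjusted p under 0.05), with S100a8 at 2.61 (adjusted p = 0.0727) and Ngp at 3.06 (adjusted p = 0.186). Against the 2 female-pattern tet-Myc/YAP livers 4 were called higher (2.94% of all genes), S100a8, S100a9 and, through the tumours, Csf3r and Ngp.

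**Figure D2:**
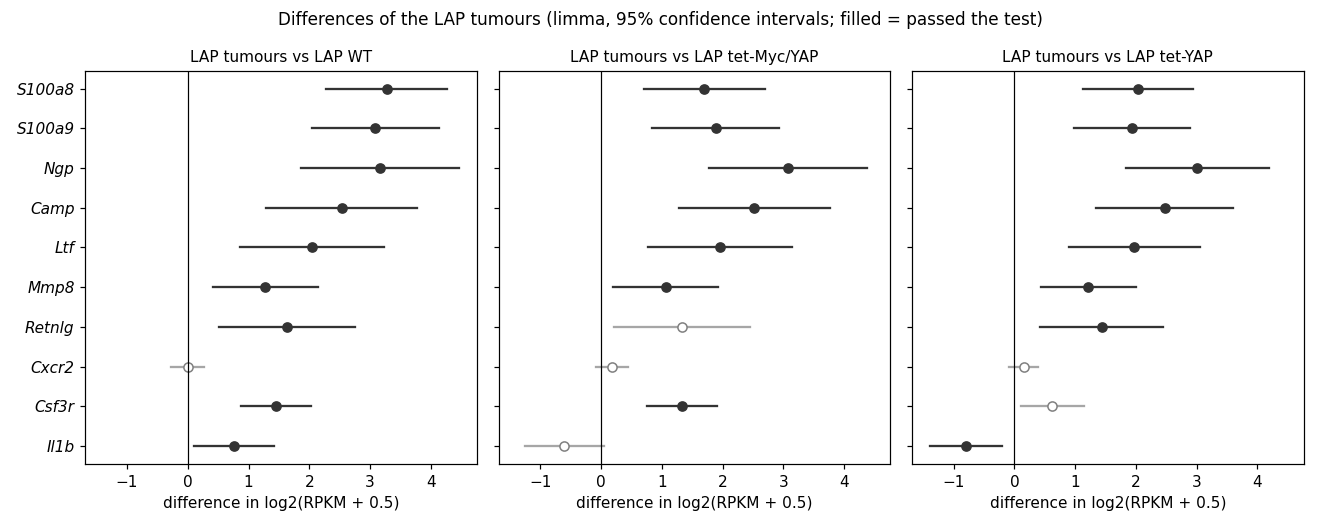
Differences of the 10 members between tumours and WT, tet-Myc/YAP or tet-YAP livers of the LAP system, in log2(RPKM + 0.5), from limma. Points are estimates and lines 95% confidence intervals, and filled points passed the test. Ngp is near 3 in all panels (3.17, 3.08 and 3.01), Cxcr2 lies near 0 (-0.00, 0.18 and 0.15), and Il1b is above 0 against WT (0.76) and below 0 against tet-YAP (-0.80).

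The 8 tumours differed widely among themselves. Over the tumours the highest value was 43.8 times the lowest for Ngp, 36.6 times for Camp, 34.6 times for Retnlg, 26 times for Ltf and 19.3 times for Mmp8. It was 6.36 times for S100a8, 5.56 times for S100a9, 5.40 times for Csf3r, 4.55 times for Il1b and 1.70 times for Cxcr2. Tumours 1, 2, 7 and 8 were the highest for every granule gene and for S100a8, which stood at 19.2, 20.8, 19.6 and 19.2 RPKM there. Tumour 3 followed with 11.4 RPKM of S100a8 and 2.61 RPKM of Ngp, then tumours 4 and 5 with 7.31 and 6.96 RPKM of S100a8 and 1.86 and 2.21 of Ngp. Tumour 6 was the lowest, with 3.28 RPKM of S100a8 and 0.303 of Ngp.

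That order did not hold for Csf3r and Il1b. Csf3r in tumour 6 was 2.96 RPKM, second only to the 3.44 RPKM of tumour 1, while tumour 4 held the lowest value, 0.636. Il1b was highest in tumour 6 at 1.71 RPKM and lowest in tumour 5 at 0.376 RPKM. Over the 8 tumours S100a9 followed S100a8 with Pearson's r = 0.997 and Spearman's rho = 0.90, Ngp with r = 0.98 and rho = 0.95, and Camp with r = 0.98 and rho = 0.95, each with adjusted p = 0.00067 for r in an exact two-sided permutation test over 40320 pairings, adjusted over 9 members. The r was 0.92 for Ltf (rho 0.95), 0.92 for Mmp8 (rho 0.90) and 0.95 for Retnlg (rho 0.90), also with adjusted p = 0.00067, and adjusted p for rho was 0.00342 to 0.00587 for these 6 members. Cxcr2 had r = 0.90 (rho 0.90, adjusted p = 0.00303, exact permutation) within its narrow range. Csf3r had r = 0.37 (rho 0.19, adjusted p = 0.44) and Il1b r = -0.23 (rho -0.12, adjusted p = 0.588, exact permutation).

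Leaving out tumours 5 and 6, the farthest from the median of S100a8, gave r = 0.97 for Csf3r and 0.37 for Il1b, and 0.872 to 0.997 for the other 7. The low r of Csf3r thus rested on those tumours. Tumours 1, 2, 7 and 8 lay close together and no cluster held 6 tumours, so the relations could not be tested within one, and whether tumours came from the same mouse is not known. Tumour 6 was the deepest library and had the lowest ceiling, with its sixth-highest gene at 28.7 RPKM. The part of this ceiling in its hepatocyte sum was not tested. Marker sums of other cell types in tumour 6 lay at or near an end of their range for monocytes, platelets and hepatocytes. Its summed monocyte markers were 61.4 RPKM (32.2 to 61.7 over the tumours), its platelet and megakaryocyte markers 18.3 RPKM (4.75 to 18.3) and its hepatocyte markers 127 RPKM (122 to 216). Their part in the levels of Csf3r and Il1b was not tested.

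**Figure D3:**
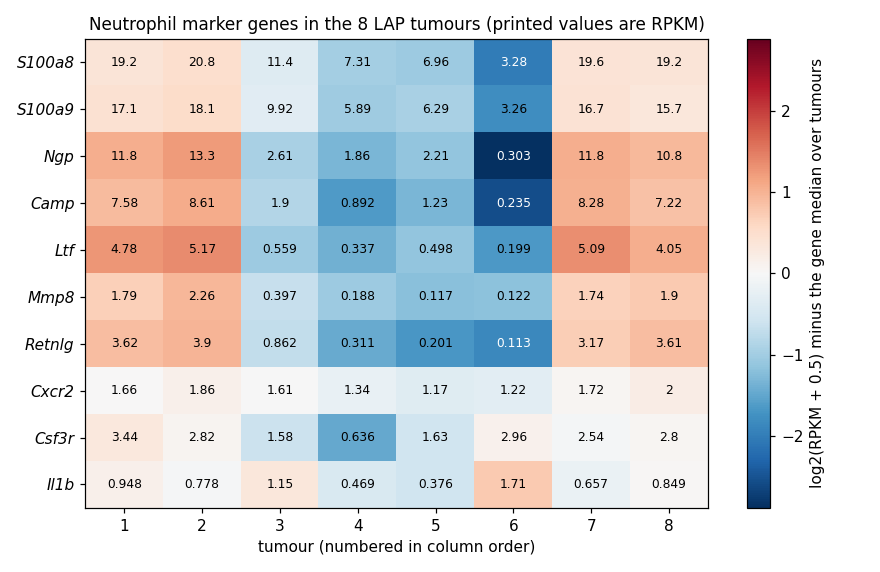
The 10 members (rows) in the 8 tumours (columns, in column order). Printed numbers are RPKM, and colour is log2(RPKM + 0.5) minus the median of the gene over the tumours. Tumours 1, 2, 7 and 8 are high in the first 6 rows and for Retnlg, where tumour 6 is low (Ngp 0.303 RPKM), whereas tumour 6 is high for Csf3r (2.96 RPKM) and Il1b (1.71 RPKM).

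**Figure D4:**
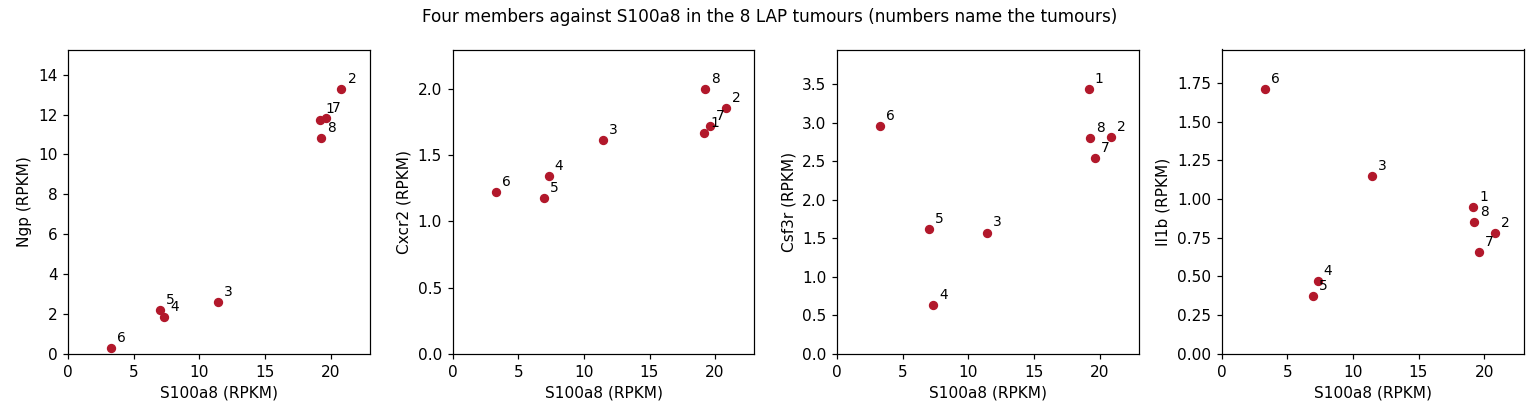
Ngp, Cxcr2, Csf3r and Il1b (vertical axes, RPKM) against S100a8 (horizontal axis, RPKM) in the 8 tumours, each point a tumour with its number. Ngp and Cxcr2 order the tumours nearly as S100a8 does (rho 0.95 and 0.90), while tumour 6 stands apart for Csf3r and Il1b.

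The members did not keep 1 ratio to each other. In RPKM, which is per length of gene, S100a9 stood at 62.7% to 145.6% of S100a8 in all 38 libraries. Ngp stood at 9.25% to 63.7% of S100a8 in tumours, with 61.3%, 63.7%, 60.3% and 56.1% in tumours 1, 2, 7 and 8. In the LAP livers without tumours it was 0% to 8.68% of S100a8. In R26 livers it was 0% to 12.6%, and R26 WT 1 and 4, with 11 and 12.3 RPKM of S100a8, held Ngp at 8.11% and 5.33% of it. Tumours 1, 2, 7 and 8 held 10.8 to 13.3 RPKM of Ngp, and those WT livers 0.893 and 0.655 RPKM. Retnlg did not set the tumours apart in this way. It stood at 2.89% to 18.9% of S100a8 in tumours, 0% to 19.9% in R26 WT and 0% to 22.1% in LAP tet-Myc. Camp stood at 7.17% to 42.2% in tumours and at 43.6% in LAP WT 2, which held only 3 reads of S100a8. In tumours S100a8 stood nearer to the ceiling of the read densities, at up to 70.0% of it, than Ngp, at up to 44.6%, and the part of this in the ratios was not tested.

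In the R26 system, 2 days after induction, S100a8 and S100a9 varied widely within groups. S100a8 stood at 5.57, 4.22 and 4.71 RPKM in tet-Myc/YAP, against 11, 2.03, 2.17 and 12.3 RPKM in WT. It ran from 3.67 to 12.2 RPKM with a median of 5.10 in tet-YAP, and stood at 10.5, 4.12, 1.66 and 0.965 RPKM in tet-Myc. The groups overlapped, and S100a8 and S100a9 passed in no R26 comparison. In WT and tet-YAP the differences within groups followed the close pairs of libraries. WT 1 and 4 held 11 and 12.3 RPKM of S100a8 and WT 2 and 3 held 2.03 and 2.17 RPKM, while tet-YAP 3 and 6 held 12.2 and 10.1 RPKM and the other 4 tet-YAP libraries 3.67 to 5.59. The widest spread, 10.9 times from lowest to highest, was that of tet-Myc, in which no pair of libraries was close.

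Ngp, Camp, Ltf and Mmp8 stayed below 1 RPKM in all 17 R26 libraries and were not tested, which left 6 members. Ngp was at 0.57, 0.531 and 0.0663 RPKM in tet-Myc/YAP, at 0.0342 to 0.973 with a median of 0.171 in tet-YAP and at 0, 0, 0.0266 and 0 in tet-Myc, against 0.893, 0.0299, 0 and 0.655 RPKM in WT. The 4 tet-Myc livers together held 1 read of Ngp, although tet-Myc 1 held 132 reads of S100a8. Retnlg, at 0.423, 0.247 and 0.308 RPKM in tet-Myc/YAP, against 2.19, 0.111, 0 and 1.56 in WT, followed the pairs as well and did not pass (-0.47, adjusted p = 0.423).

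Csf3r and Il1b were the members called lower in R26 tet-Myc/YAP. Csf3r stood at 0.533, 0.508 and 0.822 RPKM there, against 2.00, 0.997, 1.08 and 1.57 in WT, without overlap (log2 difference -0.75 ± 0.25, adjusted p = 0.0154), a call that ended without WT 1, tet-Myc/YAP 1 or tet-Myc/YAP 2 (adjusted p = 0.0523, 0.0517 and 0.0596). Il1b stood at 0.337, 0.278 and 1.12 RPKM, against 1.65, 1.87, 2.13 and 1.47 in WT, also without overlap (-1.15 ± 0.34, adjusted p = 0.00781). Against tet-YAP, where Csf3r ran from 1.11 to 1.80 RPKM with a median of 1.33 and Il1b from 1.39 to 3.36 with a median of 1.76, both were lower as well (-0.78, adjusted p = 0.0101, and -1.29, adjusted p = 0.00286), Csf3r not without tet-Myc/YAP 2 (adjusted p = 0.0502). Among the tet-Myc livers, Csf3r stood at 0.974, 1.29, 0.951 and 0.242 RPKM and Il1b at 2.04, 1.46, 1.65 and 0.338 RPKM, and neither passed against WT (-0.52, adjusted p = 0.15, and -0.39, adjusted p = 0.458). Library tet-Myc 4 was the lowest of its group for both genes.

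These falls belong to a comparison in which many genes were lower. Of 6 members tested 2 were called lower in R26 tet-Myc/YAP than in WT, where 37.6% of 11263 genes were lower and 4.61% higher, and the median of all genes was -0.39. Relative to it Csf3r was at -0.36 and Il1b at -0.76. With libraries rescaled by median ratios, 9.93% of genes were called lower and 11.4% higher, Il1b passed (-0.92, adjusted p = 0.0373) and Csf3r did not (-0.50, adjusted p = 0.113). Against tet-YAP both passed with and without rescaling, where 23.2% of genes were called lower and 4.22% higher before it and 7.18% lower and 8.93% higher after it. With close pairs averaged, which leaves 2 values each for tet-Myc/YAP and WT, no member passed in limma against WT (Csf3r -0.69, adjusted p = 0.16, and Il1b -0.99, adjusted p = 0.14; none with an unadjusted p under 0.05) or against tet-YAP (1 with an unadjusted p under 0.05). No member was called in tet-YAP against WT (6.19% of genes; none with an unadjusted p under 0.05), in tet-Myc against WT (4.87%; 1), in tet-Myc/YAP against tet-Myc (41.1%; 1) or for the interaction (25.6%; none), all in limma. Macrophage markers moved with these falls: without rescaling, 12 of 13 were called lower in R26 tet-Myc/YAP than in WT (37.6% of all genes), and their summed level was 80.5 to 89.0 RPKM, against 181 to 212 RPKM in WT. Their part in the levels of Csf3r and Il1b was not tested.

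**Figure D5:**
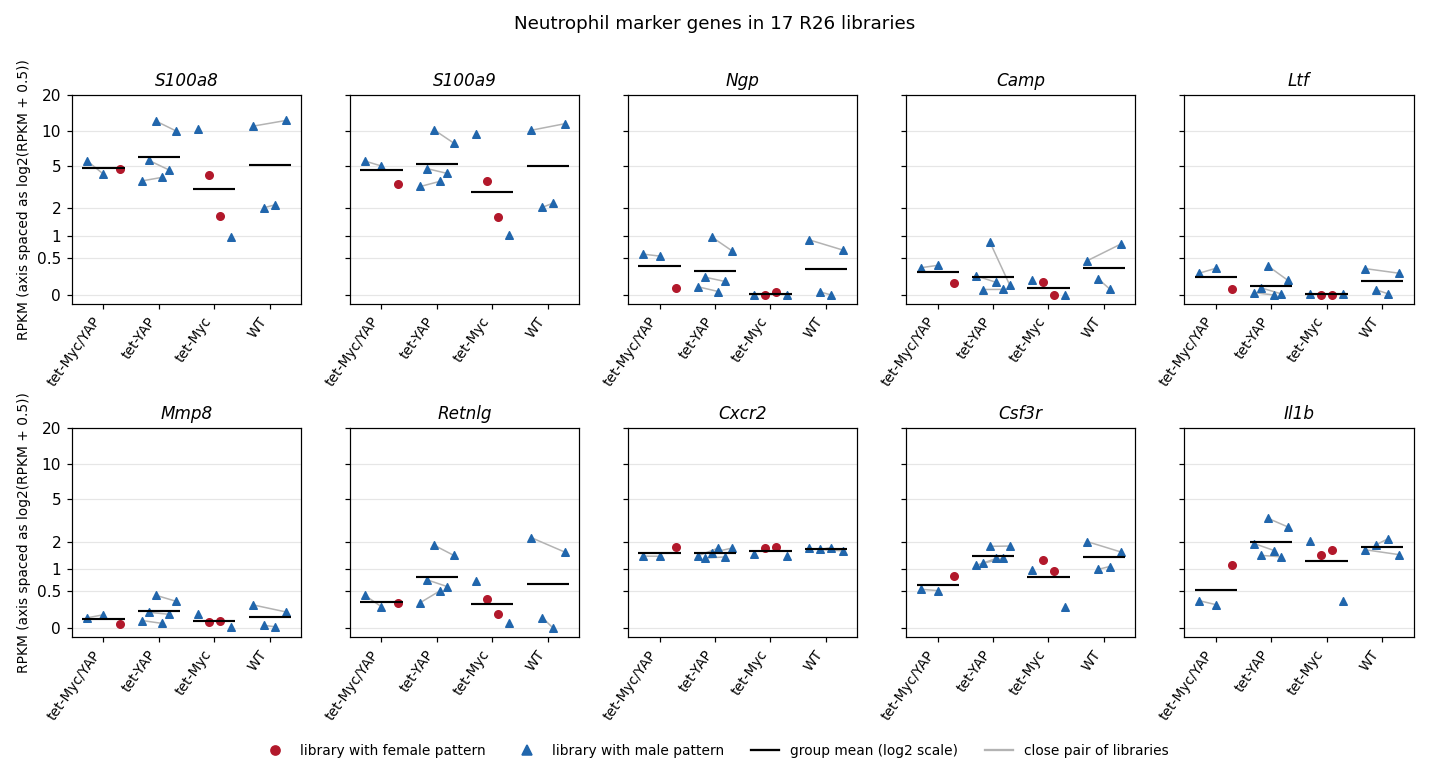
Levels of the 10 members in the 17 R26 libraries, drawn as for the LAP system, with grey lines joining the 6 close pairs of libraries. S100a8, S100a9 and Retnlg split WT into the pairs 1 and 4 (11 and 12.3 RPKM of S100a8) and 2 and 3 (2.03 and 2.17 RPKM), and Il1b and Csf3r of tet-Myc/YAP lie below all 4 WT libraries.

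Other neutrophil genes were read from lists chosen for their function. The primary granule proteases and peroxidase, made in promyelocytes, were called higher in tumours than in WT for 4 of 4 tested (21.5% of all genes), with a list median of 1.82 against -0.14 for all genes. Mpo, which makes hypochlorous acid, averaged 2.85 ± 2.69 RPKM in tumours and 0.0332 ± 0.0575 in WT (log2 difference 2.06, adjusted p = 0.00757), Elane, neutrophil elastase, 2.67 ± 2.47 and 0.0249 ± 0.0232 (2.03, adjusted p = 0.00686) and Ctsg, cathepsin G, 1.51 ± 1.34 and 0.014 ± 0.0243 (1.62, adjusted p = 0.00572; n = 8 and 3, limma). The summed level of the 5 genes was 20.2, 14.1, 18.4 and 16.6 RPKM in tumours 1, 2, 7 and 8 and 0.610 to 4.79 RPKM in the other 4, with the lowest value in tumour 6. It was 5.50, 2.67 and 2.13 RPKM in tet-Myc/YAP, 0.913 to 1.79 in tet-YAP and 0.0612 to 0.559 in tet-Myc livers, and 3.44, 0.0919 and 0.21 RPKM in WT. A tet-Myc/YAP liver thus lay above the 4 lower tumours and WT 1 above 3 of them, mostly through Prtn3, proteinase 3, which reached 5.15 RPKM in tet-Myc/YAP, 3.25 in WT and 4.58 in tumours. Like the granule members, Mpo and Elane were at or below 0.26 RPKM in every other LAP liver and passed the filter through tumours, so that their calls are no support. The same may hold for Ctsg, at 0.014 RPKM in WT, which was not checked for this.

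Of 18 tested genes for other granule, oxidase and surface proteins, 13 were called higher in tumours than in WT and none lower (21.5% of all genes higher, list median 1.16), and 11 were called higher in tet-YAP livers than in WT and none lower (11.5% of all genes higher, list median 1.34, all genes -0.10). Genes of this list and of those below could also reach the filter through the tumours alone. How many did so was not counted, so part of the 13 calls may be built in. The phagocyte integrin chain Itgam averaged 3.32 ± 2.14 RPKM in tumours and 0.236 ± 0.0294 in WT (2.16, adjusted p = 0.000101). Ncf1, a subunit of the phagocyte oxidase, averaged 4.22 ± 0.481 RPKM in tet-YAP livers and 0.926 ± 0.246 in WT (1.74, adjusted p = 0.00105). The formyl peptide receptor Fpr1 averaged 8.35 ± 1.14 RPKM in tet-YAP livers and 1.85 ± 0.842 in WT (1.97, adjusted p = 0.00069), and was lower in tumours, at 1.43 ± 0.652 RPKM, than in tet-YAP livers (-2.29, adjusted p = 5.3e-06). In that last comparison 3 of the 18 genes were called higher in tumours and 2 lower (9.89% of all genes higher and 15.5% lower). The list median was -0.15 there and that of all genes -0.07. Many genes of this list are also made by monocytes and macrophages. In R26 tet-Myc/YAP 10 of 12 tested were called lower than in WT without rescaling (37.6% of all genes, list median -0.81, all genes -0.39). Among them was the lysozyme Lyz2 at 8.03 ± 1.46 against 21.1 ± 2.84 RPKM (-1.35, adjusted p = 4.7e-07). With libraries rescaled 9.93% of all genes were lower, and the count of this list under that setting is not given.

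In tumours against WT 21.5% of all genes were called higher and 31.3% lower, and the counts of IL-1 pathway genes and transcription factors below lie near these shares. Of 4 ligands tested, 3 were called higher in tumours than in WT and none lower, the chemokine Ppbp (2.60 ± 1.69 against 0.511 ± 0.271 RPKM, 1.43, adjusted p = 0.00487), Csf1 and Tnf. Csf3, which encodes the ligand of Csf3r, was at 0.0152 to 0.0646 RPKM in tumours, listed at 0 in all 3 WT livers, and was below the filter. Of 9 IL-1 pathway genes, 2 were higher and 4 lower in tumours than in WT, with Il18 at 1.07 ± 0.458 against 5.51 ± 0.721 RPKM (-1.97, adjusted p = 3.3e-07). The granulocyte regulators Cebpa and Cebpb, which hepatocytes also express, were lower, 2 of 5 factors tested (-1.20, adjusted p = 3.7e-06, and -1.45, adjusted p = 0.000476), while Spi1, the gene of PU.1, was the 1 called higher (1.11, adjusted p = 0.0142). Among the other S100 genes 5 of 9 were higher and 3 lower, with S100a11 at 14.1 ± 1.004 RPKM in tumours and 1.77 ± 0.128 in WT (2.68, adjusted p = 1.6e-09) and S100a4 at 3.81 ± 1.29 and 0.215 ± 0.0776 RPKM (2.53, adjusted p = 2.4e-07).

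Markers of other cells of blood and liver were read in the same comparison, in which 21.5% of all genes were called higher and 31.3% lower. These markers too could reach the filter through the tumours alone, and how many did was not counted. Monocyte markers were called higher for 5 of 8 genes in tumours against WT and none lower, with a summed level of 32.2 to 61.7 RPKM in tumours and 26.4 to 36.2 in WT. Ccr2, a monocyte chemokine receptor, averaged 6.42 ± 2.57 RPKM in tumours and 0.413 ± 0.0462 in WT (2.81, adjusted p = 5.4e-07). Macrophage markers were called higher for 2 of 13 and lower for 5, near the shares of all genes. Their summed level was 63.8 to 134 RPKM in tumours and 107 to 186 RPKM in WT. The single lymphocyte marker tested was not called (0.11), and erythroid markers were higher for 1 and lower for 3 of 5, with 6.85 to 19.9 RPKM in sum in tumours and 17.97 to 31.3 in WT. The platelet gene Pf4 (1 of 1 tested) was higher, its list summing to 4.75 to 18.3 RPKM in tumours and 2.24 to 2.97 in WT. The mast cell protease Tpsb2, 1 of 2 tested markers of eosinophils, basophils and mast cells, was higher as well, the list summing to 0.30 to 26.6 RPKM in tumours and 0.31 to 0.89 in WT, where Prg2 and Cpa3 were listed at 0. All 8 hepatocyte markers were lower, at 122 to 216 RPKM in sum in tumours and 271 to 395 in WT. The ceiling, read from the sixth-highest gene, was lower in tumours too, at 28.7 to 38.6 RPKM against 43.0 to 67.3 RPKM in WT. The part of this ceiling in the hepatocyte values was not tested. The part of these other cells in the member values was not tested.

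The genes whose pattern over the 21 LAP libraries was most like the mean of S100a8 and S100a9, by Pearson's r on the log2 scale and leaving out members and unnamed gene models, were Chil3 (0.89), Pglyrp1 (0.89), Nlgn2 (0.88), Gal3st2 (0.87), C1qtnf6 (0.87), Mcemp1 (0.87), Ppbp (0.87), Mpo (0.87) and Lrrc8e (0.86). Among the members r was 0.90 for Ngp, 0.88 for Camp and Retnlg, 0.86 for Ltf, 0.85 for Mmp8, 0.79 for Csf3r, 0.43 for Cxcr2 and 0.16 for Il1b. Over the 17 R26 libraries the most alike were Cpne8 (0.82), Kcnq1ot1 (0.74), Mir1964 (0.73), Prkab2 (0.71), Dnttip2 (0.70), Srek1 (0.70), Ralgapa1 (0.68), Tmc5 (0.67), Snord52 (0.67) and Gpatch4 (0.65), while Retnlg reached 0.90, Csf3r 0.63, Il1b 0.35 and Cxcr2 -0.05. These coefficients describe libraries that share groups, and in the R26 system close pairs, and carry no test.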

How the data were processed

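RNA of mouse liver (RNeasy MinElute) was sequenced after TruSeq RNA v2 preparation that left out poly-T beads and does not mark strand, so reads of overlapping antisense genes cannot be told apart. According to the submitters' processing notes, the build was mm9 and the tools included DESeq2, featureCounts 1.4.5-p1, SAMtools and TopHat2 2.0.8. Deposited by the authors were RPKM values in 1 table for each system, and a table of their own comparisons (log2 fold changes, adjusted p-values and calls), which was not used. Each table held 21671 genes. After 27 symbols turned into dates were dropped, 21644 were kept.

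Columns were assigned to groups by name. Of low values, 91.7% lay within 0.12 of a whole read once depth was fitted, and reads per member were recovered from these steps, or for Cxcr2, Csf3r and Il1b from exon length. Genes at 1 RPKM or more in at least 3 libraries of a table were tested, all groups of a system together and without covariates, on log2(RPKM + 0.5) in limma 3.58.1 (lmFit, eBayes with trend; R 4.3.3), with two-sided p-values adjusted by Benjamini-Hochberg over the genes tested, in 15 comparisons. The 2 systems were not tested against each other. Correlations used exact permutation tests (Python 3.11.15). Alternatives were pseudocounts of 0.1 and 1, no filter, rescaled libraries, only the groups compared, sex pattern as a covariate, averaged close pairs and each library left out.

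The members and lists were chosen with earlier results of these data known. Named are the 10 members, up to 3 called genes of smallest adjusted p from each list described, and the 10 genes most alike in each system, of which 1 is not reported here. Csf3 and Prtn3 fall outside this rule and were chosen after their values were seen. The lists held neutrophil primary granule genes, other granule, oxidase and surface genes, ligands, IL-1 pathway genes, granulocyte transcription factors, S100 genes and markers of macrophages, monocytes, lymphocytes, erythroid cells, platelets, eosinophils with basophils and mast cells, and hepatocytes. Chil3 and Retnlg belong to families of similar genes and may share reads.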

Additional observations from a re-analysis of the deposited data

Results flagged for a closer look

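Ngp in R26 tet-Myc 3, at 0.0266 RPKM, stood apart from the other 3 tet-Myc livers, which were at 0, but this value is 1 read. Camp in R26 tet-YAP 3, at 0.848 RPKM, stood apart from the other 5 tet-YAP livers, of which its close pair, tet-YAP 6, held 0.104 RPKM. In all, 50 combinations of a member and a group of 4 to 8 libraries were examined for a library far from the others, and chance alone flags about 1 in 20.

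Il1b moved in opposite directions in the tet-Myc/YAP livers of the 2 systems. In the LAP system all 3 tet-Myc/YAP livers lay above every WT liver (log2 difference 1.36), and in the R26 system all 3 lay below every WT liver (-1.15). The difference between the systems was not tested, since their tables were made separately and they also differ in activator, in time of induction and in the level of WT, where Il1b stood at 0.281 ± 0.0906 RPKM in LAP (n = 3) and 1.78 ± 0.284 in R26 (n = 4).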

How the results depend on the processing

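No paired analysis was possible because the value columns carry no replicate number of the labels: those of the LAP table repeat the group name and those of the R26 table add only a running number to repeats.

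No call reversed under any alternative, including those added after the data were seen. The counts below take calls in either direction, and the share of all genes called under each setting is not printed beside them. Those for tumours include the 5 members that came in through the tumours, so they do not measure how firm a result is. For tumours against tet-YAP, 5 members passed once sex pattern was a covariate and 0 in female-pattern libraries alone, and against tet-Myc/YAP 4 passed in female-pattern libraries. For tet-Myc/YAP against WT in the LAP system, 1 passed with a pseudocount of 1, without the filter, after rescaling or with only these groups fitted, and 0 in female-pattern libraries. For tet-YAP against WT there, 1 passed with a pseudocount of 1, without the filter, with the sex pattern or with the close pair averaged, and 0 in female-pattern libraries. With only the groups compared, 1 passed between LAP tet-Myc/YAP and tet-YAP, between LAP tet-Myc/YAP and tet-Myc and for the LAP interaction, and 2 passed between LAP tet-Myc/YAP and tet-Myc with the sex pattern. In the R26 system tet-Myc/YAP against WT gave 1 after rescaling and 0 with close pairs averaged, tet-Myc/YAP against tet-YAP gave 0 with pairs averaged, and tet-Myc against WT gave 1 with the sex pattern and 1 in male-pattern libraries. The causes were not tested.

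Leaving out 1 library at a time gave 7 to 9 members for tumours against WT, 6 to 9 against tet-YAP and 6 to 8 against tet-Myc/YAP. These counts again include the 5 members that came in through the tumours, and those against tet-YAP can include Il1b as lower. It gave 0 to 3 for LAP tet-Myc/YAP and 1 to 2 for LAP tet-YAP against WT, and 1 to 2 for R26 tet-Myc/YAP against WT and against tet-YAP. It gave 0 to 1 for R26 tet-Myc/YAP against tet-Myc (1 without tet-Myc 4 or without tet-Myc/YAP 3) and for the R26 interaction (1 without either of these). Of 32 calls of single members, 23 were lost under at least 1 alternative, and 86 of 584 values in all missed the threshold.

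Depth limits the granule genes in livers, where most values rest on fewer than 15 reads.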
